A study of Mus musculus with 52 samples.

Results

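The comparison described here is that of whole spleen from female NZB/W-F1 mice at 6 months with that at 3 months, 3 libraries against 3, chosen by sample title. These 6 libraries are among the 16 of spleen and the 52 of the series, which also covers kidney and brain. NZB/W-F1 mice are the first-generation offspring of New Zealand Black dams and New Zealand White sires, and they develop a lupus-like disease without any induced mutation or treatment. Per the labels, 3 months stands for the stage before autoimmunity and 6 months for the nephritic stage with lasting proteinuria, and the animals were perfused with buffered saline before the organs were taken. Female C57BL/6 mice, the control strain, gave 2 spleen libraries at 3 months and 2 at 6 months. The other spleen libraries are 3 of NZB/W-F1 and 3 of C57BL/6 at 1 month, and both groups entered the fit. Each library is taken as 1 animal, which the labels imply through the number of mice a time point but do not state library by library.

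The spleen filters blood in its red pulp and hosts lymphocyte responses in its white pulp. An activated B cell can divide and mutate its antibody genes in a germinal centre with help from follicular helper T cells, switch its heavy chain from IgM to IgG, IgA or IgE, and mature into a plasma cell, which secretes antibody. Plasma cells enlarge their endoplasmic reticulum through the transcription factor Xbp1, which acts in the unfolded protein response, the programme that supplies chaperones and disposes of misfolded protein. Autoantibodies of IgG classes are a mark of the disease in this hybrid.

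Expression is given as counts per 1000000 reads (CPM) on the deposited scale, and the 6 libraries held 8331612 to 11998550 recovered gene reads. A floor of 3 reads in a library corresponded to 0.256 to 0.412 CPM, which covers counting error only. Differences are log2 fold changes, 6 minus 3 months, of log2(CPM + 0.5), fitted with limma over all 16 spleen libraries, and a gene was called when its Benjamini-Hochberg adjusted p over all 15122 genes was under 0.05. The added 0.5 understates the change of genes at low CPM. P-values measure the spread between libraries within their groups, pooled over all 16 spleen libraries. Against counting error, pairs within the compared groups differed by a mean chi-square per gene of 54.0 to 189. It was 12.8 to 33.9 in NZB/W-F1 at 1 month and 33.3 to 74.2 in C57BL/6. The pooled spread can therefore understate that of the compared libraries.

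Spleen markers were present in all 6 libraries: the summed level of 14 follicular and pan-B cell genes lay between 2682 and 6629 CPM, Cd3e of T cells between 32.5 and 75.0, and Spic of red pulp macrophages between 68.9 and 170. Three-month replicate 2 carried pancreatic RNA, with Cela1 at 19936 CPM, Cela2a at 13572 and Cela3b at 3863, all digestive elastases of pancreatic acinar cells. The other 3-month libraries held Cela1 at 9.19 and 26.2 CPM, and Cela2a and Cela3b at 0.317 CPM or less. Six-month replicate 3 held Cela1 at 546 CPM, Cela2a at 268 and Cela3b at 81.5, and the other 6-month libraries held Cela1 at 14.6 and 16.3 CPM. The summed level of 19 acinar genes was 20.6, 187027 and 29.3 CPM at 3 months against 16.9, 19.1 and 4501 CPM at 6 months. Its median log2 fold change of -2.07 turned to 2.23 without 3-month replicate 2, so its direction rests on that library, and none of the 19 genes was called. Of the spleen libraries not compared, C57BL/6 1-month replicate 1 held 47879 CPM of these genes and replicate 2 held 903 CPM. Below, without both libraries with pancreatic RNA means without 3-month replicate 2 and 6-month replicate 3, so these C57BL/6 libraries stayed in. Six-month replicate 3 is labelled female, yet held Xist, the RNA of the inactive X chromosome, at 1.44 CPM against 781 to 1712 in the other 15 spleen libraries. Summed erythroid genes (23 genes) ran at 1535, 17909 and 4242 CPM at 3 months against 4969, 32800 and 1199 CPM at 6 months, replicate 2 being the highest at both ages. The labels name no batch. In both strains the records of the 3-month and the 6-month samples fall in separate runs of the repository's numbering, and age cannot be told apart from whatever differs between those runs.

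**Figure D1:**
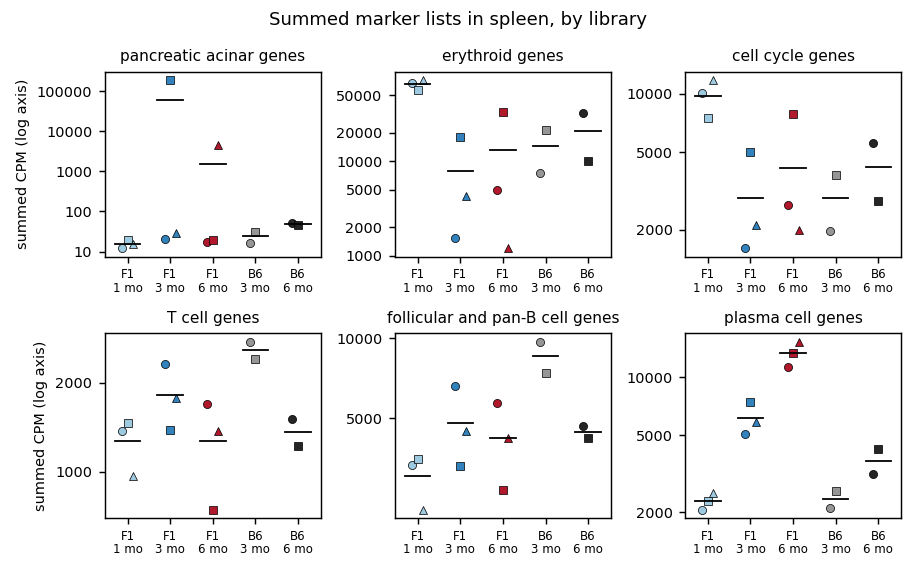
Summed CPM of 6 marker lists in each library (log axes) for NZB/W-F1 (F1) and C57BL/6 (B6) spleen, circles, squares and triangles being replicates 1, 2 and 3 and bars the group means. The acinar panel shows 3-month replicate 2 at 187027 CPM and 6-month replicate 3 at 4501 CPM, and the plasma cell panel shows every 6-month F1 library (11331 to 15231 CPM) above every 3-month one (5084 to 7450 CPM).

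Antibody genes made up most of what changed between 3 and 6 months, and genes of the machinery that secretes antibody were among the rest. Of 15122 genes, 86 were called (0.569% of all genes), 78 of them higher at 6 months (0.516%) and 8 lower (0.0529%). The 78 comprised 36 antibody variable genes, 5 variable pseudogenes, 4 antibody constant genes and 33 other genes. All 86 had 6-month libraries that did not overlap the 3-month ones, as did 884 genes in the whole table (5.85%), 3.96% of genes being higher and 1.88% lower without overlap. The median of all genes was -0.01, and edgeR's quasi-likelihood test on the recovered reads called 64 genes (0.423%), 61 higher (0.403%) and 3 lower (0.0198%), all 64 among the 86.

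The number of calls depended on single libraries, falling to 46, 55 and 28 without 3-month replicates 1, 2 and 3 and to 66, 43 and 34 without 6-month replicates 1, 2 and 3. It was 26 without 3-month replicate 2 and 6-month replicate 3, the compared libraries that held pancreatic RNA, 22 of them among the 86. It was 14 when the 6 libraries were fitted alone, 13 of them among the 86. Called with each of the 6 libraries left out in turn were 22 genes: Ighg2b, Ighg2c, 14 variable segments or pseudogenes, and 6 others, namely Cxcl14, Smpdl3b, Creld2, Txndc11, Pon3 and Rexo2. For most of the other called genes named below, the libraries whose removal ended the call are given beside them.

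Among the 12 antibody constant genes, 4 rose and none fell (median 1.56), and 1 was called with the 6 libraries fitted alone. The share called higher over all genes was 0.516%. Ighg2b, which encodes the IgG2b heavy chain (chr12:113302965-113307933, GRCm38, minus strand), stood at 248, 355 and 310 CPM at 3 months and at 2580, 2451 and 2860 CPM at 6 months. The groups were far apart and each was tight, with 304 ± 53.7 against 2631 ± 209 CPM (SD, n = 3 each) and a log2 fold change of 3.12 (SE 0.23, limma adjusted p = 3.69e-05). Ighg2c, the IgG2c heavy chain beside it (chr12:113285325-113288932), stood at 1050, 1220 and 531 CPM and then at 6487, 6378 and 6464 CPM, a rise of 2.87 (SE 0.32, limma adjusted p = 8.49e-04). The call of Ighg2c ended with the 6 libraries fitted alone (limma adjusted p = 0.069). The reference is that of C57BL/6, in which Ighg2c stands in the place of Ighg2a of other haplotypes, and how reads of other parental alleles were assigned was not tested. At 1 month the same strain had held 112, 136 and 63.4 CPM of Ighg2b and 280, 329 and 211 CPM of Ighg2c, below every 3-month library. In the reference 15.0% of the 31-base words of Ighg2c and 9.29% of those of Ighg2b occur in another gene.

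Igkc, the constant part of the kappa light chain, was the most abundant of the called genes at 5848, 11983 and 14873 CPM at 3 months against 38052, 31514 and 34849 CPM at 6 months. It rose by 1.77 (SE 0.36, limma adjusted p = 0.0424), and the call ended without any 1 of the 6 libraries (adjusted p 0.0544 to 0.137). Ighe, the IgE heavy chain, was scarce, with 1.48, 1.10 and 0.835 CPM against 26.4, 6.68 and 7.97 CPM. Its rise of 2.87 (limma adjusted p = 0.0368) ended in edgeR (adjusted p = 0.0921) and without any library other than 6-month replicate 2.

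The IgG1, IgG3, IgM and IgA chains were higher in each 6-month library without passing the threshold, while IgD was not. Ighg1 stood at 182, 268 and 486 CPM and then at 5442, 2685 and 2006 CPM, a log2 fold change of 3.42 with a wide error (SE 0.76, limma adjusted p = 0.0706). Ighg3 stood at 1788, 899 and 1895 CPM and then at 16749, 8063 and 4580 CPM (2.56, limma adjusted p = 0.0722), and 6-month replicate 1 was the highest for both. Ighm, the IgM heavy chain carried by resting B cells and early plasma cells, ran at 6167, 17737 and 18263 CPM and then at 25177, 29611 and 41966 CPM (1.32, adjusted p = 0.594). Igha, the IgA chain, ran at 508 to 767 CPM against 861 to 1077 CPM (0.72, adjusted p = 1). Ighd, the IgD chain of resting B cells, averaged 566 CPM at 3 months and 449 CPM at 6 months with overlapping libraries (-0.40, adjusted p = 1). Jchain, which joins IgM and IgA units, ran at 3315, 5294 and 3955 CPM and then at 7656, 9623 and 11471 CPM (1.20, adjusted p = 0.254).

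**Figure D2:**
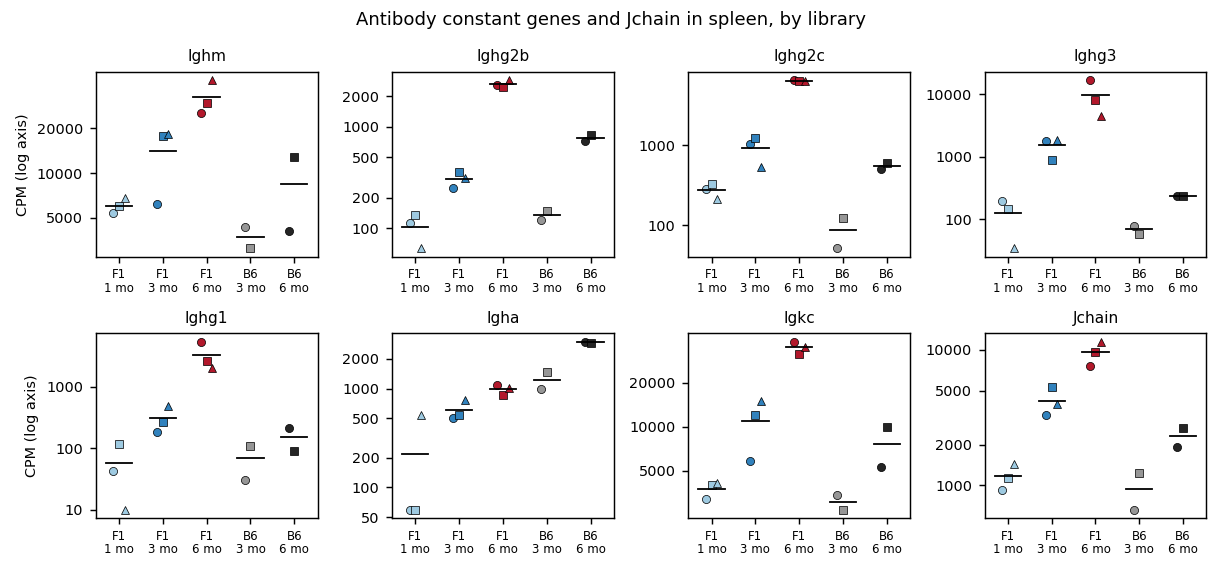
CPM of 7 antibody constant genes and Jchain in each library (log axes), symbols as replicate numbers and bars as group means, for F1 spleen at 1, 3 and 6 months and B6 spleen at 3 and 6 months. In F1 the 6-month libraries lie above all 3-month libraries in every panel, and Ighg2b, Ighg2c and Igkc also lie higher at 6 months in B6.

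Antibody genes together took 2.17, 3.86 and 4.92% of all CPM at 3 months against 11.04, 9.64 and 11.99% at 6 months. The means were 3.65 ± 1.39 and 10.9 ± 1.18% (SD, n = 3 each), and the exact two-sided permutation test gave p = 0.1, the smallest that 3 against 3 allows (adjusted p = 0.4 over the 8 such comparisons). IgG classes made up 30.7, 12.8 and 14.1% of heavy constant CPM at 3 months against 53.8, 38.9 and 26.8% at 6 months, and these ranges overlapped (exact p = 0.2). Lambda chains made up 9.48, 8.71 and 4.47% of light constant CPM and then 3.11, 1.96 and 3.13% (exact p = 0.1, adjusted p = 0.4). In bulk tissue, a change in the number of cells of a type cannot be told apart from a change in RNA per cell.

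Variable segments, the parts of antibody genes that bind antigen, rose broadly. Of 191 variable genes tested, 36 rose and none fell, 178 had a positive difference and the median was 1.60. Over all genes, 0.516% were called higher. The 36 were 16 of 95 heavy segments, 19 of 93 kappa segments and 1 of 3 lambda segments. The count of 36 became 17 without 3-month replicate 1, 15 without 3-month replicate 3, 21 without 6-month replicate 2 and 18 without 6-month replicate 3. It became 17 without both libraries with pancreatic RNA and 12 with the 6 libraries fitted alone, while the median stayed between 1.22 and 1.87. Igkv10-96 (chr6:68631963-68632442) was among the steadiest, at 95.1, 133 and 96.1 CPM and then 625, 603 and 835 CPM (2.67, limma adjusted p = 1.17e-04). Ighv1-82 (chr12:115952538-115953005) went from 18.2, 18.0 and 23.5 to 197, 117 and 245 CPM (3.14, limma adjusted p = 8.49e-04). Iglv3, a lambda segment, went from 45.1, 53.8 and 67.5 to 171, 107 and 173 CPM (1.42, limma adjusted p = 0.0064). Each of these 3 segments kept its call with any 1 library left out.

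In some called segments 1 of the 6-month libraries stood far above the others. Igkv5-43 held 25.8, 68.5 and 57.3 CPM at 3 months against 409, 866 and 4518 CPM at 6 months (4.63, limma adjusted p = 0.00554), and in 6-month replicate 3 it made up 23.7% of all kappa segment CPM. Igkv3-3 was at 0.422, 0 and 0.371 CPM and then at 1.96, 153 and 26.8 CPM, a call (limma adjusted p = 0.0475) that ended without any library other than 6-month replicate 1. The leading kappa segment was Igkv5-39 in all 3-month libraries, with 19.6, 23.6 and 24.8% of kappa segment CPM. At 6 months it was Igkv14-126 in replicates 1 and 2, with 16.9 and 6.51%, and Igkv5-43 in replicate 3. The effective number of segments, the exponential of the Shannon entropy, was 48.2, 33.9 and 38.9 for heavy chains at 3 months and 38.9, 47.8 and 37.98 at 6 months (exact p = 0.9). For kappa it was 42.7, 31.2 and 35.3 and then 38.2, 47.8 and 35.5 (exact p = 0.5). Among the 41 called variable genes and pseudogenes, 18 share at least 50% of their 31-base words with another gene, Igkv5-43 with 66.8% among them, so their individual counts are uncertain. The reference is that of C57BL/6, and how reads of other parental segments were assigned was not tested.

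**Figure D3:**
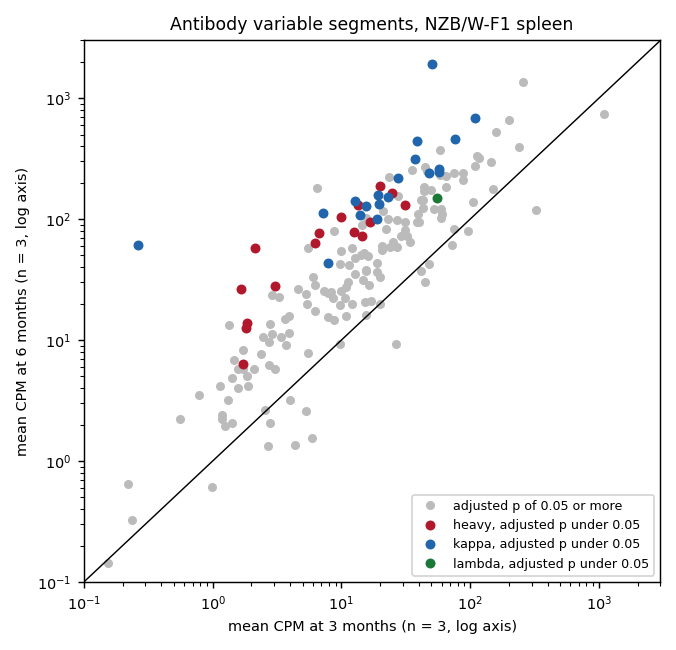
Mean CPM of each of the 191 antibody variable genes at 3 months (x, log axis) against 6 months (y, log axis) in F1 spleen, 3 libraries each, with the line of equal values. Most points lie above the line, 178 of the 191 having a positive fitted difference, and the 36 called ones are coloured by chain.

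Genes of plasma cells and of protein secretion rose with the antibody genes. Of 16 plasma cell genes 5 rose and none fell (median 1.02). Of 18 unfolded protein response genes 3 rose, none fell and all 18 had a positive difference (median 0.72). Over all genes, 0.516% were called higher. Creld2 and Xbp1 are on both lists. Without both libraries with pancreatic RNA, 1 plasma cell gene and 1 unfolded protein response gene were called, with medians of 1.17 and 0.78. Without replicate 2 of both ages, the 2 of the 6 compared libraries with the most erythroid RNA, 1 and 0 were called. With the 6 libraries fitted alone 0 of either list were called. The summed level of the plasma cell genes was 5084, 7450 and 5884 CPM at 3 months against 11331, 13281 and 15231 CPM at 6 months. It did not overlap between the ages.

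The promoters of Creld2, Herpud1 and Txndc11 are shown because each holds a sequence element of the unfolded protein response, and all 3 genes rose. These promoters were picked for both traits, so that the traits meet in them is not a result. They are the 250 bases before the RefSeq transcript start on GRCm38.p6, in the gene's direction, at chr15:88819396-88819645 (plus strand), chr8:94386179-94386428 (plus) and chr16:11134533-11134782 (minus), and capitals mark the element.

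Creld2: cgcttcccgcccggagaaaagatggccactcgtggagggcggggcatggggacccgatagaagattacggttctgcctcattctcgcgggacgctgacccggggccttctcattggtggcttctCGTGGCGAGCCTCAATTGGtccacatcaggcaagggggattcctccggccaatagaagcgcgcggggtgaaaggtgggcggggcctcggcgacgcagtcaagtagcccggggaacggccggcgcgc

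Herpud1: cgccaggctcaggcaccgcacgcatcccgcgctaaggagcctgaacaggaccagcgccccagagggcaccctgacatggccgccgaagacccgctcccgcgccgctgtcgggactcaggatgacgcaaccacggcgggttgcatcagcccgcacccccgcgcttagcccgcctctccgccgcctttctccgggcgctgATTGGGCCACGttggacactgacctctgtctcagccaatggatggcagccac

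Txndc11: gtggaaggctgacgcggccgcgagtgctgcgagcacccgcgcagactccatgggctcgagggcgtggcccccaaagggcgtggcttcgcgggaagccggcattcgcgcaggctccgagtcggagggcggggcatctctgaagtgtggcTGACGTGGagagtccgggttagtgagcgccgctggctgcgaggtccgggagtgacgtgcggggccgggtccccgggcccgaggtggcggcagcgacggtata

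Creld2 holds the endoplasmic reticulum stress element (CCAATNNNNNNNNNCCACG, searched on both strands) in reverse, 126 to 108 bases before the start. That element was in 0.119% of all 32851 promoter windows of 300 bases. It was in 6 of the 16 unfolded protein response genes with a window, namely Calr, Canx, Creld2, Hsp90b1, Hspa5 and Pdia6. Herpud1 holds element II (ATTGG and CCACG with 1 base of any kind between them, both strands searched) 52 to 42 bases before its start, found in 0.0365% of windows, and Txndc11 holds the unfolded protein response element core (TGACGTGG) 102 to 95 bases before its start, found in 0.676%. Of the same 16 genes, 1 held element II and 0 held the core. Among the 33 higher genes other than antibody genes, 27 had a window, and Enpp1 also held the TGACGTGG core. Of their 30 windows, 3.33% held the endoplasmic reticulum stress element, 3.33% element II and 6.67% the core. A match describes the letters and does not show binding.

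Creld2, a stress-induced protein of the endoplasmic reticulum, stood at 91.3, 90.5 and 76.7 CPM at 3 months and at 237, 261 and 172 CPM at 6 months. It rose by 1.35 (SE 0.20, limma adjusted p = 0.00725), and the call ended with the 6 libraries fitted alone (0.13) and without replicate 2 of both ages (0.071). Txndc11, a thioredoxin-domain protein, stood at 80.9, 100 and 83.2 CPM and then at 191, 179 and 183 CPM, both groups being tight (1.07, SE 0.16, limma adjusted p = 0.0072). Mzb1, a chaperone for IgM assembly in B and plasma cells, went from 263, 214 and 200 to 577, 476 and 466 CPM (1.17, limma adjusted p = 0.0156), and its call ended when 3-month replicate 2, 3-month replicate 3 or 6-month replicate 1 was left out (adjusted p up to 0.0818). Xbp1 went from 232, 386 and 290 to 573, 722 and 636 CPM (1.11, limma adjusted p = 0.033). Its call ended in edgeR (0.0524) and without any library other than 3-month replicate 2. Irf4, a transcription factor that plasma cell maturation needs, went from 110, 104 and 101 to 200, 145 and 238 CPM (0.86, limma adjusted p = 0.0422), a call that ended without any library other than 6-month replicate 2.

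Other called genes act in the endoplasmic reticulum, and they were gathered here after their values were seen. Edem1, which extracts misfolded glycoproteins, went from 279, 365 and 283 to 524, 644 and 621 CPM (0.95, limma adjusted p = 0.0336), and the call ended in edgeR (0.053) and when 3-month replicate 1, 3-month replicate 3, 6-month replicate 2 or 6-month replicate 3 was left out. Its relative Edem2 rose by 0.91 (limma adjusted p = 0.0422), but not in edgeR (0.0527) or without any library other than 3-month replicate 2. Herpud1, part of the degradation complex in the same membrane, went from 133, 139 and 112 to 244, 226 and 219 CPM (0.85, limma adjusted p = 0.0335), and Tram2, of the translocation channel, rose by 1.10 (limma adjusted p = 0.0367). Man1b1, a mannosidase that marks glycoproteins for degradation, rose by 0.61 (limma adjusted p = 0.0476). The calls of Herpud1, Tram2 and Man1b1 ended without any 1 of the 6 libraries, with adjusted p of at most 0.157, 0.155 and 0.167. Ssr4, a translocon-associated subunit, went from 123, 154 and 139 to 261, 226 and 235 CPM (0.80, limma adjusted p = 0.0123), and missed the threshold only without 3-month replicate 3 (0.0525). Hsp90b1, a chaperone, was at 870, 595 and 492 and then 1111, 1600 and 1172 CPM, with an adjusted p of 0.0535. Sdc1, the surface marker CD138 of plasma cells, was at 21.96, 50.8 and 55.8 and then 112, 86.5 and 121 CPM (1.40, adjusted p = 0.0722), and Prdm1, the factor Blimp-1, had a log2 fold change of 1.09 (adjusted p = 0.15).

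**Figure D4:**
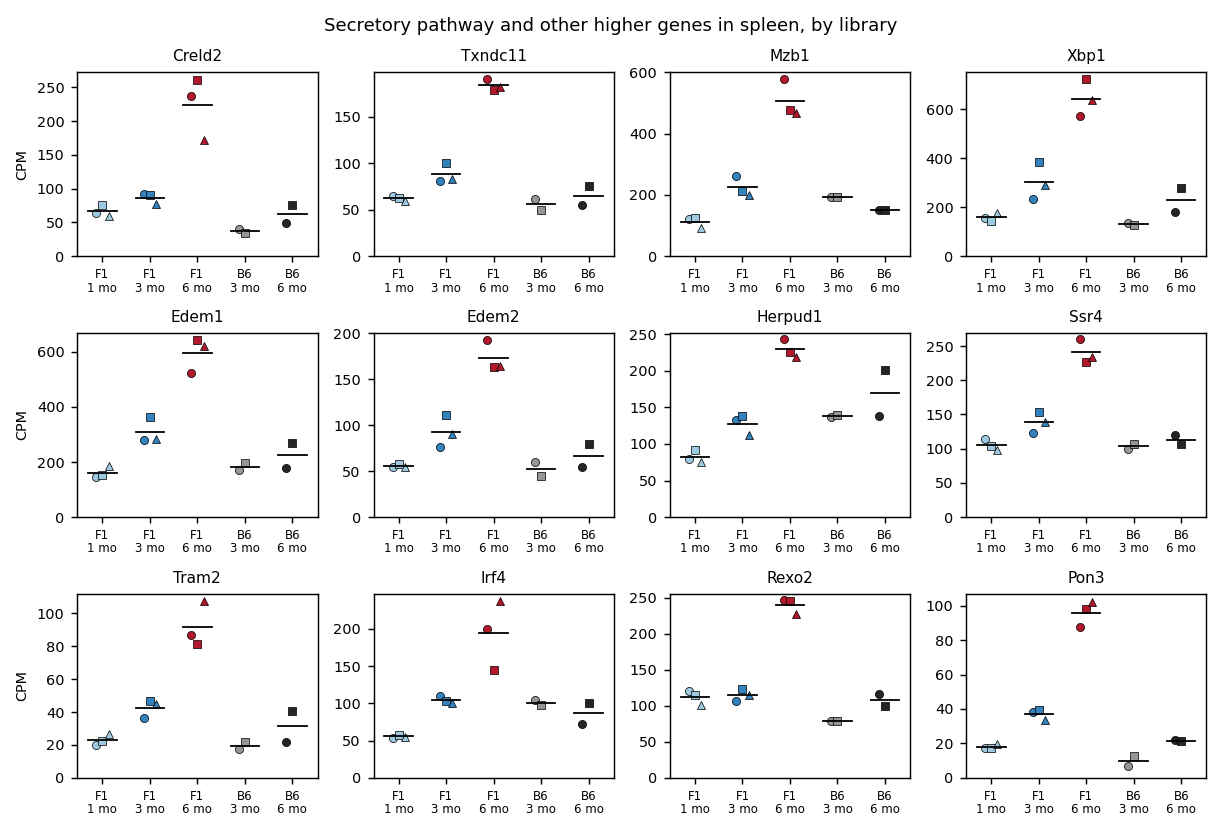
CPM (linear axes from 0) of 12 genes called higher at 6 months in F1 spleen, by library, symbols as replicate numbers and bars as group means, with F1 at 1 month and B6 at 3 and 6 months for comparison. In every panel the 3 F1 6-month libraries lie above the 3 F1 3-month libraries, for example 172 to 261 against 76.7 to 91.3 CPM for Creld2.

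B cell lists other than plasma cells showed few or no calls. None of 14 follicular and pan-B cell genes was called (median -0.18, and 0.10 without 6-month replicate 2 and 0.02 without 3-month replicate 1). None of 12 germinal centre genes was called, though all 12 had a positive difference (median 0.78). Without 3-month replicate 1, 1 of them was called. Of 10 genes of age-associated B cells, a subset known to expand in lupus models, Fcrl5 rose, where 0.516% of all genes did. Fcrl5, an inhibitory Fc receptor-like protein of B cells, went from 21.96, 10.98 and 13.6 to 49.2, 33.6 and 66.9 CPM (1.66, limma adjusted p = 0.0392). Its call ended when replicate 2 or 3 of the younger or replicate 1 or 3 of the older animals was left out (adjusted p up to 0.168). Itgax, the integrin CD11c, was at 54.4, 49.1 and 62.1 and then 113, 78.8 and 186 CPM (1.10, adjusted p = 0.153).

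Among T cell genes both chains of the CD8 coreceptor fell. Of 17 T cell genes 2 fell and none rose (median -0.46, and -0.15 without 6-month replicate 2). The share called lower over all genes was 0.0529%. With the 6 libraries fitted alone no gene was called lower, Cd8a having an adjusted p of 0.38 and Cd8b1 of 0.44. Cd8a (chr6:71373427-71379173), the CD8 alpha chain of cytotoxic T cells and some dendritic cells, stood at 79.7, 59.6 and 73.8 CPM at 3 months and at 34.8, 15.1 and 32.9 CPM at 6 months. It fell by 1.43 on the log2 scale (SE 0.27, limma adjusted p = 0.033), and the call ended without 3-month replicate 1 or 3 (adjusted p up to 0.131). Cd8b1 (chr6:71322788-71337494), the beta chain, went from 63.1, 43.4 and 52.8 to 27.7, 9.08 and 19.4 CPM (-1.60, limma adjusted p = 0.0476), a call that ended in edgeR (0.0761) and without any library other than 6-month replicate 1. Without both libraries with pancreatic RNA neither was called, at adjusted p of 0.07 for Cd8a and 0.16 for Cd8b1. Cd4, the helper coreceptor, ran at 152, 83.9 and 111 and then 155, 61.4 and 97.0 CPM (-0.20, adjusted p = 1), and its difference ran from -0.53 to 0.13 with 1 library left out. Lef1, a factor of naive T cells, was at 92.5, 51.3 and 75.4 and then 41.1, 11.4 and 21.9 CPM (-1.68, adjusted p = 0.0957). Six-month replicate 2, the one of the 6 compared libraries with the most erythroid RNA, was the lowest of them for Cd8a, Cd8b1, Cd4 and Lef1. The part of cell composition in these differences was not tested. Without replicate 2 of both ages, Cd8a kept its call and Cd8b1 did not (0.13).

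Of 17 genes of follicular helper and activated T cells, 2 rose and none fell (median 0.92), where 0.516% of all genes were called higher. Tigit, an inhibitory receptor, went from 6.76, 7.55 and 7.43 to 19.4, 18.5 and 21.5 CPM (1.39, limma adjusted p = 0.0365), and its call ended without any 1 of the 6 libraries (0.0837 to 0.137). Lag3, another inhibitory receptor, went from 20.3, 22.5 and 31.2 to 60.6, 54.1 and 69.9 CPM (1.32, limma adjusted p = 0.0316), a call that ended without any library other than 3-month replicate 3. Neither was called without both libraries with pancreatic RNA. Pdcd1, the receptor PD-1, was at 13.7, 10.7 and 11.8 and then 40.4, 20.1 and 30.01 CPM (1.24, adjusted p = 0.0977). Il21, the helper cytokine that drives plasma cell formation, was at 3.91, 0.961 and 1.30 and then 6.73, 6.68 and 10.3 CPM (1.87, adjusted p = 0.178). Il10, another B cell stimulating cytokine, was at 2.01, 0.549 and 0.464 and then 4.43, 3.65 and 9.19 CPM (2.10, adjusted p = 0.178). Tnfsf4, the OX40 ligand that costimulates helper T cells, rose from at most 0.845 to at least 2.19 CPM (1.78, limma adjusted p = 0.0474), but not in edgeR (0.137) or without any 1 of the 6 libraries. None of 13 cytotoxic and NK cell genes was called (median -0.29, and 0.04 without 3-month replicate 3), Prf1, the pore-forming perforin, being closest at 19.5, 19.5 and 30.3 and then 12.6, 7.93 and 12.5 CPM (-1.03, adjusted p = 0.0563).

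Outside the antibody genes, the largest rises were in scarce transcripts. Cxcl14, a chemokine, stood at 0.739, 0.549 and 0.279 CPM, near the floor, at 3 months and at 12.9, 8.35 and 15.5 CPM at 6 months (3.62, limma adjusted p = 0.0034). It stayed called with each library left out, but missed the threshold without both libraries with pancreatic RNA (0.053) and with a pseudocount of 0.1 (0.053). Smpdl3b, a phosphodiesterase that dampens Toll-like receptor signals in macrophages, went from 0.845, 1.51 and 2.23 to 7.16, 11.1 and 14.9 CPM (2.51, limma adjusted p = 0.00423). Its call ended without both pancreatic libraries (0.059) and with the 6 libraries fitted alone (0.13). Lipg, endothelial lipase, went from 0.845, 1.51 and 1.11 to 4.77, 10.2 and 26.1 CPM (2.81, limma adjusted p = 0.0316), a call that ended without any library other than 6-month replicate 1. Ccl8, a monocyte-attracting chemokine, went from 2.96, 0.824 and 0.928 to 7.16, 15.6 and 7.09 CPM (2.39, limma adjusted p = 0.0189), a call that ended in edgeR (0.0524) and when 3-month replicate 2, 3-month replicate 3 or 6-month replicate 2 was left out. It was the 1 called gene of 17 chemokines, where 0.516% of all genes were called higher.

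Wfdc17, a secreted protein of activated macrophages, went from 14.6, 14.8 and 10.3 to 33.8, 60.7 and 69.1 CPM (1.96, limma adjusted p = 0.0113), and its call ended when 3-month replicate 3, 6-month replicate 2 or 6-month replicate 3 was left out. Ms4a6d, a macrophage membrane protein, went from 8.45, 8.65 and 9.004 to 19.4, 34.2 and 57.8 CPM (1.90, limma adjusted p = 0.0257), a call that ended without any library other than 6-month replicate 1. Nrcam, a neural adhesion molecule, went from 0.739, 0.961 and 0.835 to 4.26, 5.22 and 7.86 CPM (2.19, limma adjusted p = 0.0138), and its call ended when 3-month replicate 1, 3-month replicate 3 or 6-month replicate 3 was left out. Rexo2, an RNA-degrading exonuclease of mitochondria, had the smallest error among these, with 106, 123 and 115 CPM against 247, 245 and 228 CPM (1.06, SE 0.12, limma adjusted p = 8.49e-04). Pon3, a lactonase of the paraoxonase family, went from 38.1, 39.5 and 33.6 to 87.5, 97.8 and 102 CPM (1.36, limma adjusted p = 0.00613; 0.07 without both pancreatic libraries).

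The remaining higher genes, named after their values were seen, were Slc3a2, Enpp1, Slamf9, Sirpb1a, Cacna1h, Atat1, Negr1, Trp73 and Myh15, with log2 fold changes of 0.89 to 2.39. All of them lost the call without at least 3 of the 6 libraries. Sirpb1a shares 54.5% of its 31-base words with other genes and is uncertain.

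Besides Cd8a and Cd8b1, 6 genes fell. Ccr9, a chemokine receptor of gut-homing T cells and plasmacytoid dendritic cells, went from 31.6, 30.5 and 27.2 to 9.97, 6.16 and 16.4 CPM (-1.51, limma adjusted p = 0.024), and kept its call only without 6-month replicate 3. It was the 1 called gene of 14 on the dendritic cell list, where 0.0529% of all genes were called lower. Vipr1, the receptor of vasoactive intestinal peptide on T cells, went from 32.8, 19.4 and 31.1 to 12.1, 3.24 and 9.30 CPM (-1.83, limma adjusted p = 0.0474), but not in edgeR (0.0744). Lrrc75b, Tdrp, Cd209d and Arl4c had log2 fold changes of -1.75, -1.43, -1.32 and -1.05, and of these edgeR did not call Lrrc75b (0.069), Cd209d (0.055) or Arl4c (0.066). Vipr1 and Lrrc75b kept the call only without 6-month replicate 1, Tdrp only without 3-month replicate 2, Arl4c only without 3-month replicate 2 or 6-month replicate 1, and Cd209d lost it without any 1 of the 6.

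No gene was called among 34 interferon-stimulated genes (median 0.02), 11 of the Ifi200 family (-0.03), 16 MHC class I genes (0.21) or 11 MHC class II genes (-0.08). Oasl1, with the lowest p among the interferon-stimulated genes, was at 15.6, 10.4 and 13.1 and then 7.33, 11.4 and 6.75 CPM. Red pulp macrophage genes (15 genes, median 0.15), monocyte genes (14, 0.29), neutrophil genes (15, -0.59), erythroid genes (23, 0.34), haem synthesis genes (11, 0.30), cell cycle genes (24, 0.38) and platelet genes (15, 0.26) had no calls either. For the erythroid list the median turned to -0.58 without 3-month replicate 1 and to -0.83 without 6-month replicate 2, and the haem synthesis median to -0.34 and -0.62 without the same libraries. For the cell cycle list it turned to -0.17 without 6-month replicate 2, for MHC class II genes to 0.205 without that library, and for red pulp macrophage genes to -0.39 without 3-month replicate 1 and -0.21 without 6-month replicate 3. The erythroid and cell cycle sums were highest in the same libraries, replicate 2 of each age, with cell cycle sums of 1610, 4998 and 2119 CPM at 3 months against 2666, 7854 and 1984 CPM at 6 months. Heat shock genes (13, -0.01), ribosomal protein genes (28, -0.12), mitochondrially encoded genes (8, -0.46), stromal genes (18, 0.06) and endothelial genes (13, 0.00) had none called. The medians of the interferon-stimulated, Ifi200, heat shock, ribosomal, stromal and endothelial lists also changed sign with at least 1 library left out.

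**Figure D5:**
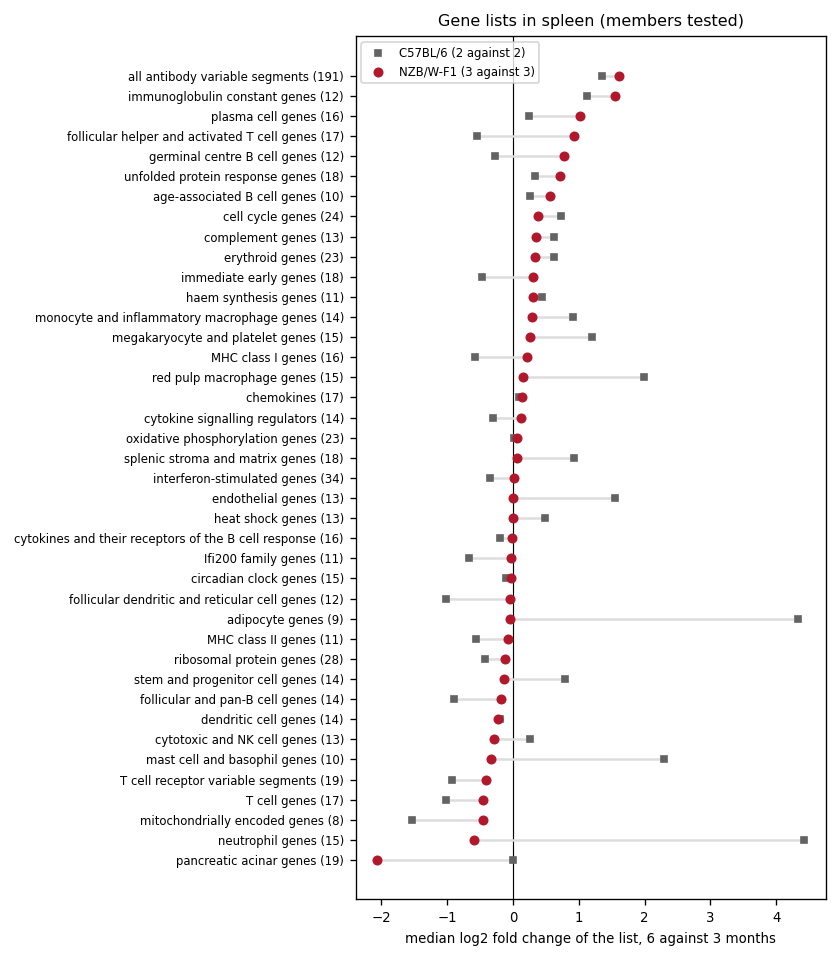
Median log2 fold change, 6 against 3 months, of each gene list (number of members tested in brackets) in F1 spleen (red circles) and B6 spleen (grey squares). Antibody and plasma cell lists have the highest medians in F1 (1.60, 1.56 and 1.02), and in B6 neutrophil and adipocyte lists do (4.42 and 4.33).

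C57BL/6 spleen over the same ages also showed an antibody rise, at lower CPM. There, 117 genes were called (0.774%), 115 higher (0.76%) and 2 lower (0.0132%), with 2 libraries a group, and the number ran from 0 without 3-month replicate 1 and 1 without 6-month replicate 2 to 43 without 3-month replicate 2 and 318 without 6-month replicate 1. It was 23 in edgeR (0.152%). Ighg2b stood at 120 and 147 CPM and then at 719 and 823 CPM (2.53, limma adjusted p = 0.0061), and Ighg2c at 51.4 and 122 and then at 502 and 606 CPM (2.79, adjusted p = 0.0278). Both were higher at 6 months in NZB/W-F1 than in C57BL/6 in every library. The genes called the same way in both strains were 7, which is 8.14% of the NZB/W-F1 and 5.98% of the C57BL/6 genes, namely Ighg2b, Ighg2c, Ighv1-61, Ighv1-82, Ighv5-17, Pon3 and Ccl8. Antibody genes took 1.18 and 1.09% of CPM at 3 months against 1.88 and 3.76% at 6 months in C57BL/6. Of the 191 antibody variable genes 7 rose there, all heavy segments, and the median was 1.35 against 1.60 in NZB/W-F1. For heavy segments the median was 1.80 against 1.63, for kappa segments 1.17 against 1.53, and for antibody constant genes 1.12 against 1.56. Some heavy segments were near the floor in NZB/W-F1 at both ages, such as Ighv1-76 and Ighv1-54 (differences of -0.08 and 0.08). Ighv3-6, the leading heavy segment of C57BL/6 6-month replicate 2 (6.71% of heavy segment CPM), averaged 0.218 and 0.642 CPM in NZB/W-F1. The part of such segments, and of reads from other parental alleles, in these medians was not tested. Plasma cell genes had a median of 0.24 there, unfolded protein response genes 0.34, follicular helper and activated T cell genes -0.54 and T cell genes -1.02, with no gene of these 4 lists called. The T cell list was thus also lower at the median in the control strain, with Cd8a at -0.91 (adjusted p = 0.164) and Cd8b1 at -1.18 (0.148). Neutrophil genes, of which 7 of 15 rose in C57BL/6, had sums of 65.7 and 544 CPM in the younger and 2535 and 5069 CPM in the older animals. Adipocyte genes had sums of 32.5 and 15.8 and then 709 and 424 CPM. Their part in the C57BL/6 result was not tested.

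No gene was called for a difference between the strains in its change from 3 to 6 months. Limma called 0 interactions (1521 genes at an unadjusted p under 0.05) and edgeR called 0 (1538). Without NZB/W-F1 3-month replicate 1 it was 171, without C57BL/6 3-month replicate 2 it was 14, and without 1 of 4 other libraries (both C57BL/6 6-month ones and NZB/W-F1 6-month replicates 1 and 2) it was 1 or 2. The interaction is free of any offset that the libraries of 1 age share in both strains. Il5ra, the interleukin-5 receptor chain, had the lowest p, with a change of 0.98 in NZB/W-F1 and -1.39 in C57BL/6 (difference 2.38, limma adjusted p = 0.0738). The difference was 0.59 (limma adjusted p = 0.609) for Ighg2b, 0.08 (0.966) for Ighg2c, 0.52 (0.77) for Igkc and 2.45 (0.177) for Fcrl5. Thus genes called in NZB/W-F1 and not in C57BL/6 were not shown to differ between the strains.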

How the data were processed

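RNA was measured in whole spleen, with TRIzol extraction and the TruSeq RNA v2 kit per the labels' protocols. The submitters' processing notes name STAR 2.6 and HTSeq with mm10, and edgeR, and the strand setting is not given in the sources used here. The deposited values are a CPM-like signal per gene whose library totals run from 922403 to 1143677 (geometric mean 1000000), as trimmed-mean scaling gives. The plan had assumed plain CPM. Whole reads were recovered for 100% of values within 0.01 and served only edgeR 4.0.16. The 16 spleen libraries held 5268102 to 19418394 reads, and no pair within a group agreed within sampling noise. Of 15122 genes 15115 matched GENCODE vM21 (GRCm38), and promoters came from RefSeq.

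Limma 3.58.1 (R 4.3.3, trended moderation, pseudocount 0.5) fitted a mean for each of 6 groups over genes with at least 1 CPM in 2 libraries, which all genes passed. The fit was tested on simulated data. The simulated libraries shared a common mean profile apart from planted changes, without pancreatic or erythroid differences. That test therefore does not show that the calls hold in these libraries. Of the 3 same-numbered NZB/W-F1 pairs, 2 deviated together and 1 did not (residual r of 0.37, 0.245 and -0.178), so the numbers were not taken to pair the libraries. The gene lists and members were chosen with earlier results of these data known. Genes were named when called, at 5 CPM or more in 1 age and without overlap, the 12 largest a direction, plus up to 4 a list with the lowest p. Others were named after their values were seen. Some genes are not reported here.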

Additional observations from a re-analysis of the deposited data

How the results depend on the processing

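The 86 NZB/W-F1 calls became 64 in edgeR, 94 with median-of-ratios scaling, 75 with a filter of 5 CPM and 54 with a pseudocount of 0.1. They became 14 when only the compared groups were fitted and 26 without both compared libraries with pancreatic RNA. Without replicate 2 of each age, the 2 of the 6 compared libraries with the most erythroid RNA, they were 36. Leaving out 1 library gave 28 to 66. The replicate block gave 84 calls, 70 of them shared, with 430 in C57BL/6 and 0 for the interaction. The 117 C57BL/6 calls became 23 in edgeR, 0 with only the compared groups, 188 with a pseudocount of 0.1 and 0 to 318 with 1 library left out, and 222 with the crossed numbering of its 6-month libraries as a replicate block, added since its same-numbered libraries deviated apart (r of -0.193). The interaction gave 0 to 171 with 1 library left out and 1 without replicate 2 of each NZB/W-F1 age. The alternatives that leave out the libraries with pancreatic or erythroid RNA and the crossed numbering were chosen after seeing the data. None of the 98 called or tested genes changed direction under the alternatives run, while Cd4, Spic, Cela1, Cela2a and Cela3b, given as levels, changed sign with 1 library left out (Cela1 from -3.82 to 1.69). With 1 C57BL/6 library left out, the lone library of its group is assumed to vary like the other groups. The smaller fits hold fewer samples, and the cause of the other shifts was not tested.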
